A study of Mus musculus with 21 samples.

Results

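The genes described here are 10 metalloproteases and inhibitors of metalloproteases in mouse brain endothelial cells, the cells that line the brain's blood vessels. They were chosen by name, with earlier results of these data known. Adamts1, Adamts4, Adamts9, Mmp14, Mmp15, Adam10 and Adam17 encode proteases, and Timp1, Timp2 and Timp3 encode inhibitors. All 10 had a row among the 24206 uniquely named rows of the expression table. RNA was sequenced in 21 libraries of live cells sorted by FACS as CD45-, CD31+ and PDGFRb- from the brains of adult C57BL/6 mice of 12 to 20 weeks.

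A stroke experiment held 4 groups of 4 libraries, all from mice that had a 1 h occlusion of the middle cerebral artery and 1 d of reperfusion. Cko-ST and Cko-NS are the stroke and the non-stroke hemisphere of mice with the genotype Gpr124 flox/-; ROSA-CreER+. WT-ST and WT-NS are the same hemispheres of mice with the genotype Gpr124 flox/+; ROSA-CreER+, so the controls also carried 1 floxed allele and the recombinase. ROSA-CreER is not limited to endothelium, and none of the 4 groups comes from unoperated mice. Bcat (n = 3) held cells of Ctnnb1 lox(ex3)/+; Cdh5-CreER+ mice in the normal condition, in which an endothelial recombinase removes exon 3 of the beta-catenin gene. Ctnnb1-WT (n = 2) held cells of Ctnnb1 +/+; Cdh5-CreER+ mice. Separate animals for separate libraries are not stated in the labels. The p-values therefore cover only the spread among these libraries, which may in part be technical.

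ADAMTS proteases are secreted enzymes that cut proteoglycans such as aggrecan and versican in the extracellular matrix. MMP14 and MMP15 are matrix metalloproteases held in the cell membrane, and ADAM10 and ADAM17 are membrane proteases that release the outer parts of other surface proteins, a process called shedding. TIMPs are secreted inhibitors that block the active site of metalloproteases, and TIMP3 differs from the others in binding to the matrix and in blocking ADAM17 and several ADAMTS enzymes as well as MMPs. In brain vessels these enzymes and inhibitors act on the basement membrane and on endothelial surface proteins.

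Levels are given as the RPKM that the authors computed (reads scaled by the length of the gene and the size of the library). The stroke libraries hold tags from the 3' end of polyadenylated RNA, and total RNA and different kits were used for the other 5, so no level was compared between the experiments, and in the stroke libraries RPKM orders genes only roughly. Relative depth ran over 1 to 4.16 times that of the shallowest stroke library, and 12967 to 14362 genes were above 0 in each of the 21 libraries. Differences below are of log2(RPKM + 1) with the SE of the fit, tested with limma and adjusted over all genes tested, and a gene is said to have risen or fallen where the adjusted p was under 0.05. Summed RPKM of 6 endothelial markers was 867 to 1033 in Cko-ST, 772 to 956 in Cko-NS, 831 to 927 in WT-ST and 665 to 791 in WT-NS. RNA of other brain cells was also present, with a sum over 4 oligodendrocyte markers of 16.1 to 252 in Cko-ST, 40.3 to 493 in Cko-NS, 27.5 to 353 in WT-ST and 179 to 971 in WT-NS. Gpr124 was lower in every Cko-ST library (0.500 to 1.72 RPKM) than in WT-ST (2.92 to 8.12 RPKM), while Cko-NS (0.994 to 4.86 RPKM) overlapped WT-NS (2.65 to 7.58 RPKM), and neither difference passed the test (-1.28 ± 0.39, adjusted p = 0.764, and -0.57 ± 0.39, adjusted p = 0.533). Tags from the 3' end check a deletion only in part, and a gene-level value does not show the loss of exon 3 of Ctnnb1. By label, all WT-NS, WT-ST and Cko-NS libraries and Cko-ST 1 and 2 were female. Cko-ST 3 and 4 and all Bcat and Ctnnb1-WT libraries were labelled male. By Xist and Y-linked RNA, Cko-NS 4 (labelled female) read male and Cko-ST 3 (labelled male) read female. Both stayed in their labelled groups. In the stroke experiment males, by label or by RNA, were found only among knockouts, so sex was not balanced between genotypes.

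The stroke-responsive genes lie apart in the genome. In GENCODE's annotation of GRCm38 (mm10), Adamts1 is on chromosome 16 from 85793827 to 85803113 on the minus strand, Adamts4 on chromosome 1 from 171250421 to 171260637 on the plus strand, and Adamts9 on chromosome 6 from 92772699 to 92943492 on the minus strand. Timp1 is on chromosome X from 20870166 to 20874735 and Timp3 on chromosome 10 from 86300372 to 86349506, both on the plus strand. Whether reads were counted by strand is not given in the sources used here, and some of these genes share exonic bases with a gene on the opposite strand. Timp3 shares 1733 bases with Syn3, a synaptic vesicle gene, which averaged 0.0599 RPKM in Cko-ST, 0.181 in Cko-NS, 0.535 in WT-ST and 0.284 in WT-NS, far under Timp3 itself. Adamts9 shares 1381 bases with A730049H05Rik and 424 with Gm15737, neither of which is a name in the table. Timp1 lies inside the span of Syn1 and shares no exonic base with it.

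The promoter sequences of the genes that changed in both stroke comparisons are shown so that the motifs they hold can be compared. They run from 250 bases before to 50 bases after the RefSeq start (GRCm38.p6), 5' to 3' on the strand of the gene, at chr16:85803064-85803363 (Adamts1), chr6:92943485-92943784 (Adamts9), chrX:20869916-20870215 (Timp1) and chr10:86300162-86300461 (Timp3). Adamts4 is the member without an entry. Capitals mark matches, on either strand, to the AP-1 motif TGANTCA, the hypoxia response core ACGTG, the NF-kB motif (10 letters, 2 of them free), the TCF/LEF motif CTTTGA and the GC box GGGCGG.
Adamts1: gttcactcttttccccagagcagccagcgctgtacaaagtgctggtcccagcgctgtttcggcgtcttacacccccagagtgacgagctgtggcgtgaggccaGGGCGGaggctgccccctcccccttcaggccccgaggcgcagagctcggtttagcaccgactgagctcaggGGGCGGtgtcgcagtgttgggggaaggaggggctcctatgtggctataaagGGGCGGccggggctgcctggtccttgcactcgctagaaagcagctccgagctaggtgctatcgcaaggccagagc
Adamts9: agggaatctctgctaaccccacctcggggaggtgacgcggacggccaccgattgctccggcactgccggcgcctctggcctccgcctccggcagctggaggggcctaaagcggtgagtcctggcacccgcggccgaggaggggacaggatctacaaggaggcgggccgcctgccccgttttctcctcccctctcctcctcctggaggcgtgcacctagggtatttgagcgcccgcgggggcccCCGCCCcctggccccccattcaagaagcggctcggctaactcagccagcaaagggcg
Timp1: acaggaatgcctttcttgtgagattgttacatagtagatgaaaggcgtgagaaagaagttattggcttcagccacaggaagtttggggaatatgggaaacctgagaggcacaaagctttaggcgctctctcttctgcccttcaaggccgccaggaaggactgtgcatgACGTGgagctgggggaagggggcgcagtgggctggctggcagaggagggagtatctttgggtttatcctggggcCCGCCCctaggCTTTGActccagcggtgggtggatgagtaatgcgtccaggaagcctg
Timp3: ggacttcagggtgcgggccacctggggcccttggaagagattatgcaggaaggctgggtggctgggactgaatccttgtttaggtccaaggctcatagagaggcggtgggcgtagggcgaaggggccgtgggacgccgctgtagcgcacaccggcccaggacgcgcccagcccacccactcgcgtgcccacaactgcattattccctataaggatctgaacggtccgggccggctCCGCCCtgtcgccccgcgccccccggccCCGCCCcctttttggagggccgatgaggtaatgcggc
The Adamts1 window held 3 GC boxes, the Adamts9 window 1 and the Timp3 window 2. The Timp1 window held 1 ACGTG, 1 CTTTGA and 1 GC box. None of these 4 windows held a TGANTCA or an NF-kB match. Among 32851 promoters of this length, 35.7% held a GC box, 19.6% ACGTG, 16.0% CTTTGA, 7.81% TGANTCA and 1.63% the NF-kB motif. A match is a description of letters and does not show that a factor binds there.

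Transcripts of all 3 ADAMTS proteases and of the inhibitor Timp1 rose in the stroke hemisphere of both genotypes, and the inhibitor Timp3 fell. Of the 8 members that passed the filter on low values in the stroke libraries (a mean of at least 1 RPKM over the 16), 4 rose and 1 fell in the Gpr124 knockouts, where 15.2% of all 9838 tested genes changed (6.44% rose and 8.71% fell). In controls 4 rose and 1 fell, where 13.3% of all genes changed (8.46% rose and 4.84% fell). The 5 genes were the same in both. Timp1 passed the filter through its stroke libraries alone, and the members were chosen with earlier results of these data known. The counts, and the medians that follow, are therefore a description and not a test of the set against all genes. The median difference of the 8 was 1.396 in knockouts, where that of all genes was -0.13, and 1.38 in controls, where that of all genes was 0.01. Mmp14 and Mmp15 were under the filter.

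**Figure D1:**
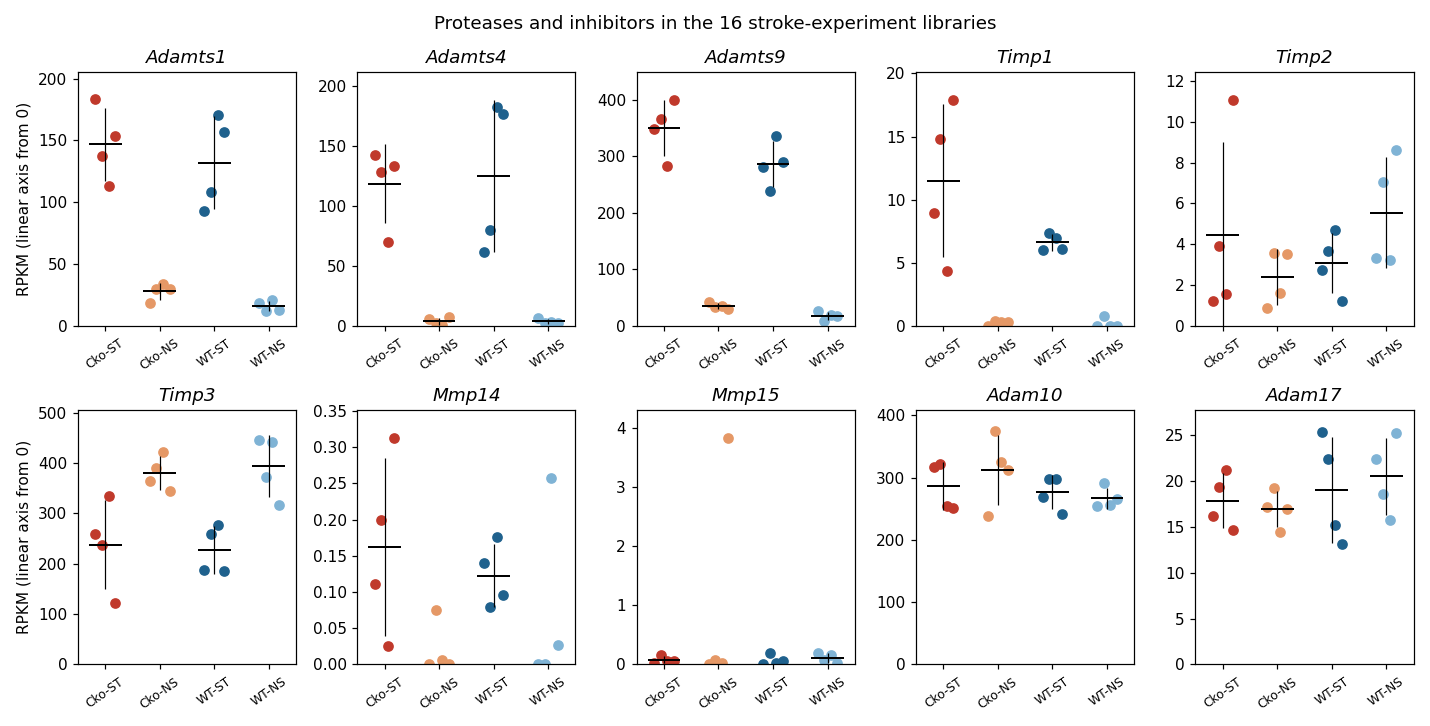
RPKM (linear axes from 0, each panel on its own scale) of the 10 genes in the 4 stroke-experiment groups; points are libraries, horizontal bars are means and vertical bars 1 SD (cut at 0), drawn only for groups with no library at 0. Adamts1, Adamts4, Adamts9 and Timp1 are higher in every stroke library (Cko-ST, WT-ST) than in any non-stroke library (Cko-NS, WT-NS), while Adam10 and Adam17 overlap.

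Adamts4, also called aggrecanase-1, showed the largest rise of the 8 on the log2(RPKM + 1) scale. It had 143, 128.5, 69.9 and 133 RPKM in the Cko-ST libraries, against 5.89, 2.43, 0.984 and 7.23 RPKM in Cko-NS. In controls it had 62.0, 80.1, 183 and 177 RPKM in WT-ST, against 6.71, 2.22, 3.42 and 2.92 RPKM in WT-NS. The lowest stroke library (62.0) stood far above the highest non-stroke library (7.23). The ratio of means was 28.7 in knockouts and 32.9 in controls. On the log2 scale the differences were 4.70 ± 0.44 (adjusted p = 3.31e-06) and 4.64 ± 0.44 (adjusted p = 2.12e-06), which ranked 1 and 2 among the 9838 genes ordered by difference.

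Adamts9, an enzyme that cuts versican and aggrecan, reached the highest RPKM of the 3. It had 349, 367, 282 and 400 RPKM in Cko-ST, against 42.0, 33.5, 36.0 and 30.6 RPKM in Cko-NS. Control values were 281, 238.5, 337 and 290 RPKM in WT-ST, against 26.6, 8.46, 19.8 and 18.1 RPKM in WT-NS. Libraries within each group lay close together compared with the gap between hemispheres. The difference was 3.26 ± 0.25 in knockouts (adjusted p = 7.95e-07), a ratio of means of 9.84, and 3.99 ± 0.25 in controls (adjusted p = 3.74e-08), a ratio of 15.7. It ranked 11 in knockouts and 7 in controls.

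Adamts1, a proteoglycan-cutting enzyme that is also known to bind VEGF, rose less than Adamts4 and Adamts9. It had 183, 137.5, 113 and 153 RPKM in Cko-ST, against 18.5, 29.9, 33.9 and 30.02 RPKM in Cko-NS. Libraries of controls had 92.7, 108, 171 and 157 RPKM in WT-ST, against 18.5, 11.8, 21.3 and 13.3 RPKM in WT-NS. The groups did not overlap in either genotype, which held for 7.40% of all genes upward in knockouts and 11.9% in controls. The difference was 2.36 ± 0.25 in knockouts (adjusted p = 8.01e-06) and 2.94 ± 0.25 in controls (adjusted p = 6.24e-07), with ratios of means of 5.23 and 8.14.

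Timp1, a secreted inhibitor of many MMPs, was near the limit of detection outside the stroke hemisphere. It had 8.95, 14.8, 4.37 and 17.9 RPKM in Cko-ST, against 0, 0.441, 0.290 and 0.301 RPKM in Cko-NS. In controls it had 6.03, 7.35, 6.99 and 6.12 RPKM in WT-ST, against 0.807 RPKM in WT-NS 2 and a listed 0 in the other WT-NS libraries. The non-stroke values correspond to an estimated 0 to 5 reads per library. Every stroke library stood above every non-stroke library. The difference was 3.17 ± 0.35 in knockouts (adjusted p = 1.29e-05) and 2.71 ± 0.35 in controls (adjusted p = 4.88e-05), and its size depends on the value of 1 added before taking logs. The ratio of means was 44.6 in knockouts, above that of Adamts4, and 32.8 in controls, level with it, over non-stroke means that rest on few reads. With 0.1 added, the difference in controls was 5.27 for Timp1 and 4.97 for Adamts4. With 0.1 or 5 added and under the other alternatives it ran from 1.57 to 5.07 in knockouts and from 1.16 to 5.27 in controls, past the threshold in all 28 alternatives of each. Timp1 is X-linked, and 2 libraries went against their labelled sex; without them it stayed past the threshold in both comparisons.

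Timp3, the matrix-bound inhibitor, moved the other way from a high level. It had 260, 236, 334 and 121 RPKM in Cko-ST, against 364, 390, 422.5 and 345 RPKM in Cko-NS. Control values were 186, 259, 277 and 186 RPKM in WT-ST, against 445, 373, 441 and 317 RPKM in WT-NS. The groups overlapped in neither genotype, which held downward for 11.4% of all genes in knockouts and 8.70% in controls, although Cko-ST 3 (334) came close to the lowest Cko-NS library (345). The difference was -0.76 ± 0.24 in knockouts (adjusted p = 0.0377), a ratio of means of 0.626, and -0.80 ± 0.24 in controls (adjusted p = 0.0322), a ratio of 0.577.

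The fall of Timp3 stood close to the threshold in the fit without pairing. The labels state no pairing of hemispheres. As the groups did not overlap in either genotype, any pairing gives a lower stroke value in every pair and adds no evidence. With the replicate number as a block, the adjusted p in limma was 0.0101 in knockouts. That block joined same-numbered libraries of both genotypes, so it is not a pairing of hemispheres within knockouts. The fall stayed past the threshold in 18 of 29 alternatives in knockouts and 22 of 29 in controls, and the direction held in all of them. In knockouts, leaving out Cko-NS 1, 2 or 3 or Cko-ST 1, 2 or 4 ended the call, with adjusted p of 0.0507 to 0.107, and without Cko-ST 4 the difference was -0.47. In controls, leaving out WT-NS 1, 2 or 3 or WT-ST 1 or 4 ended it, with adjusted p of 0.0551 to 0.0911. In these bulk samples, fewer cells of a type and less RNA per cell cannot be told apart. The summed RPKM of 7 mural-cell markers, led by Rgs5, was 11.7 to 99.8 in Cko-ST and 17.2 to 30.4 in Cko-NS, and 8.25 to 46.3 in WT-ST and 41.3 to 64.2 in WT-NS. The highest mural sum was in Cko-ST 4, the library with the lowest Timp3 of its group, and the part of mural RNA in the result was not tested. Choroid plexus RNA was lower in the median stroke library: the sum of 3 markers, led by Ttr, was 3.98 to 994 RPKM in Cko-ST (median 61.3) and 82.5 to 1322 RPKM in Cko-NS (median 387), and 15.4 to 596 RPKM in WT-ST (median 173) and 289 to 474 RPKM in WT-NS (median 350). The sums overlapped between hemispheres in both genotypes. The oligodendrocyte sum had medians of 79.7 RPKM in Cko-ST and 191 RPKM in Cko-NS, and 157 RPKM in WT-ST and 344 RPKM in WT-NS. The part of either in the fall of Timp3 was not tested.

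Markers of blood leukocytes were compared beside the rises. Their sum over 6 genes, led by S100a8 and S100a9, was 4.47 to 19.8 RPKM in Cko-ST and 8.94 to 83.7 RPKM in Cko-NS, and 2.06 to 42.6 RPKM in WT-ST and 0 to 7.68 RPKM in WT-NS, and the T-cell gene Cd3e was listed at 0 in all 4 groups. The sum of 6 microglia and macrophage markers was 0.535 to 1.28 RPKM in Cko-ST and 2.34 to 7.81 RPKM in Cko-NS, and 0.206 to 1.71 RPKM in WT-ST and 0.677 to 78.6 RPKM in WT-NS. The leukocyte sums of the hemispheres overlapped in both genotypes, and their part in the rises was not tested.

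Adam10 and Adam17, the membrane sheddases, had values that overlapped between the hemispheres. Adam10, known for cutting Notch and VE-cadherin, had 316, 322.5, 254 and 251 RPKM in Cko-ST, against 238, 375, 325 and 312 RPKM in Cko-NS. Libraries of controls had 268, 298, 298 and 242 RPKM in WT-ST, against 255, 291, 256 and 266 RPKM in WT-NS. The 95% interval of the difference was -0.43 to 0.20 in knockouts (adjusted p = 0.641) and -0.27 to 0.36 in controls (adjusted p = 0.887), neither of which reaches the intervals of the ADAMTS genes. Adam17, the enzyme that releases TNF, had 14.7 to 21.2 RPKM in Cko-ST, 14.4 to 19.2 in Cko-NS, 13.1 to 25.3 in WT-ST and 15.8 to 25.3 in WT-NS. Its intervals were -0.41 to 0.54 in knockouts (adjusted p = 0.881) and -0.61 to 0.35 in controls (adjusted p = 0.774). Adam17 shares 311 exonic bases with Iah1 on the opposite strand.

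**Figure D2:**
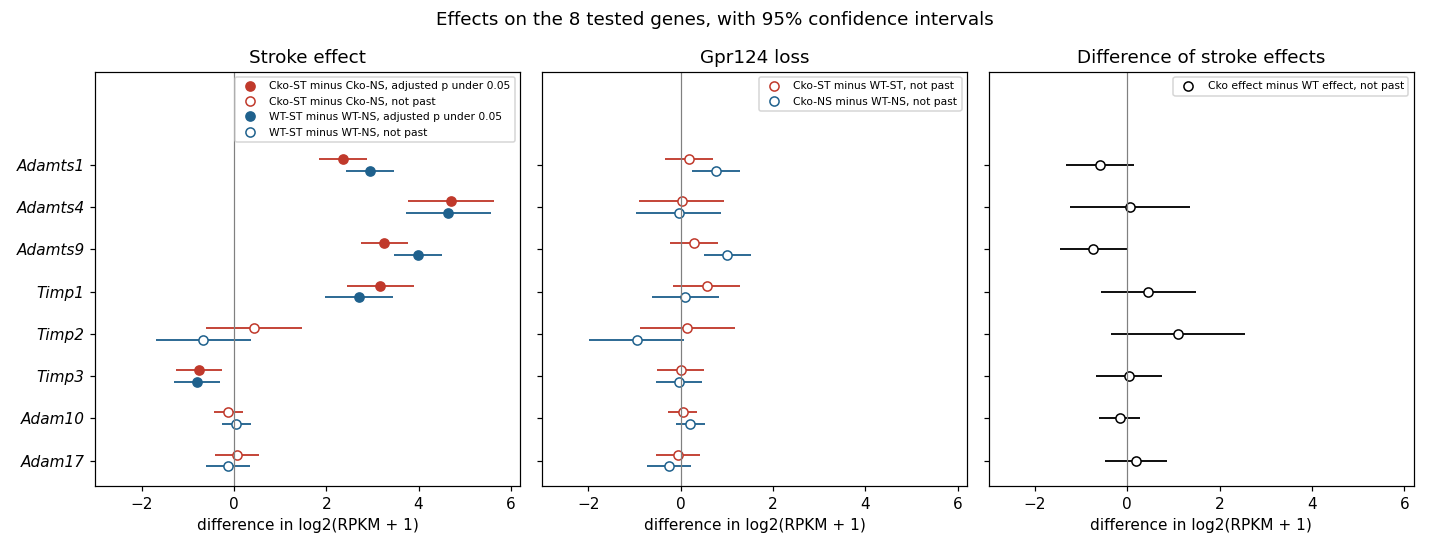
Differences in log2(RPKM + 1) with 95% confidence intervals for the 8 tested genes: Cko-ST minus Cko-NS and WT-ST minus WT-NS (left), Cko-ST minus WT-ST and Cko-NS minus WT-NS (middle), and the stroke effect in knockouts minus that in controls (right). Filled points passed an adjusted p of 0.05; only stroke effects did, with Adamts4 at 4.70 and 4.64 and Timp3 at -0.76 and -0.80.

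Timp2, an inhibitor that also takes part with MMP14 in activating MMP2, varied widely among libraries. It had 1.22, 3.90, 1.59 and 11.1 RPKM in Cko-ST, against 0.879, 3.56, 1.62 and 3.53 RPKM in Cko-NS. In controls it had 2.75, 3.69, 4.72 and 1.24 RPKM in WT-ST, against 3.33, 7.06, 3.23 and 8.60 RPKM in WT-NS. The groups overlapped in both genotypes, and Cko-ST 4, with the highest mural sum, also held the highest Timp2. The difference was 0.44 ± 0.49 in knockouts (adjusted p = 0.594) and -0.66 ± 0.49 in controls (adjusted p = 0.421), with wide intervals of -0.59 to 1.47 and -1.69 to 0.37. Mmp14 was listed at 0.0259 to 0.313 RPKM in Cko-ST, 0 to 0.0757 in Cko-NS, 0.0794 to 0.176 in WT-ST and 0 to 0.258 in WT-NS. Mmp15 was at or under 0.198 RPKM in every stroke-experiment library other than Cko-NS 4, which had 3.83. These values rest on an estimated 0 to 16 reads for Mmp14, and no difference was detectable for either gene at this depth (with no filter, adjusted p = 0.212 and 0.704 for Mmp14 and 0.495 and 1 for Mmp15, in knockouts and in controls).

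**Figure D3:**
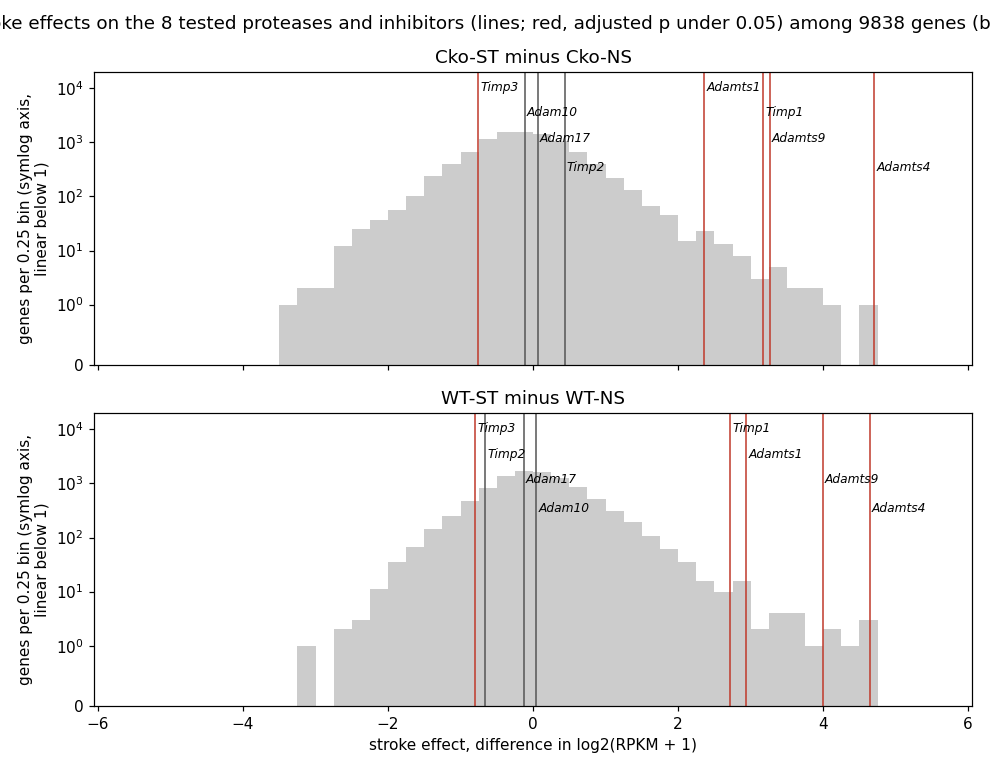
Number of genes per 0.25-wide bin of the stroke effect (difference in log2(RPKM + 1)) among 9838 tested genes, on an axis that is logarithmic above 1, for Cko-ST minus Cko-NS (top) and WT-ST minus WT-NS (bottom), with a line for each of the 8 tested genes (red, adjusted p under 0.05). Adamts4 lies at the right edge of both distributions, at 4.70 and 4.64, and Adam10 and Adam17 lie near their middle.

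Among the 8, the order of levels also differed between hemispheres, within the rough scale of 3' tags. In the stroke hemisphere Adamts9 had the highest mean, 349 RPKM in Cko-ST and 287 RPKM in WT-ST, though its library range overlapped that of Adam10 in both groups. In the non-stroke hemisphere Timp3 led, with 380 RPKM in Cko-NS and 394 RPKM in WT-NS. Adam10 came next at 312 and 267 RPKM, overlapping Timp3 in Cko-NS and apart from it in WT-NS. None of the 3 ADAMTS genes averaged over 35.5 RPKM there.

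Gpr124 is an endothelial adhesion receptor that works with Reck in Wnt7 signalling, and none of the 8 genes passed the threshold for its loss. In the non-stroke hemisphere 0 of 8 passed in limma, where 0.315% of all genes did, and 2 (Adamts1 and Adamts9) had an unadjusted p under 0.05, as 14.3% of all genes did. In the stroke hemisphere 0 of 8 passed in limma, where 0% of all genes did and 476 had an unadjusted p under 0.05, none of them a member. Adamts9 had the largest difference in the non-stroke hemisphere, with 30.6 to 42.0 RPKM in Cko-NS and 8.46 to 26.6 RPKM in WT-NS. Every Cko-NS library was higher than every WT-NS library, as for 6.66% of all genes. The difference was 1.02 ± 0.25 (adjusted p = 0.0681), which passed at 0.0441 when only genes with a mean of at least 5 RPKM were tested and not under the other alternatives. Scaling libraries by the median of ratios gave 0.88 (adjusted p = 0.171). Adamts1 came next, at 18.5 to 33.9 RPKM in Cko-NS and 11.8 to 21.3 RPKM in WT-NS, with overlapping libraries (0.76 ± 0.25, adjusted p = 0.171). Timp2 had the most negative difference of the 8, at 0.879 to 3.56 RPKM in Cko-NS and 3.23 to 8.60 RPKM in WT-NS (-0.95 ± 0.49, adjusted p = 0.398). In the stroke hemisphere the differences of the 8 ran between -0.05 for Adam17 (adjusted p = 0.998) and 0.56 for Timp1 (adjusted p = 0.994).

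The stroke effects in knockouts and controls were compared directly by an interaction term. Of the 8 genes, 0 passed in limma, where 0% of all genes did and 691 had an unadjusted p under 0.05, among them Adamts9. For Adamts9 the interaction was -0.73 ± 0.35 (95% interval -1.46 to 0.00, unadjusted p = 0.0495, adjusted p = 0.706). For Adamts4 the interaction was 0.06 ± 0.62 and for Adamts1 -0.58 ± 0.35 (adjusted p = 0.986 and 0.772). For Timp1 it was 0.46 ± 0.49, for Timp2 1.10 ± 0.69 and for Timp3 0.04 ± 0.34. The intervals for Adamts4 (-1.24 to 1.36), Timp1 (-0.58 to 1.495) and Timp2 (-0.36 to 2.55) were wide and reached past a doubling. Such a difference could therefore not be told from none for these genes.

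Other metalloproteases, inhibitors, partners and substrates were counted from fixed lists. Of 21 other ADAMTS and ADAMTS-like genes, 2 were high enough to test. Adamts10, an ADAMTS protease that binds fibrillin microfibrils, fell in knockouts (1.34 RPKM in Cko-ST and 5.29 RPKM in Cko-NS, -1.37 ± 0.34, adjusted p = 0.0108) and averaged 1.71 RPKM in WT-ST and 2.59 RPKM in WT-NS (adjusted p = 0.406). Adamtsl4 averaged 2.28 RPKM in Cko-ST and 2.34 RPKM in Cko-NS, and 1.16 RPKM in WT-ST and 0.945 RPKM in WT-NS. Of 21 other MMPs only Mmp19 was tested. It fell in knockouts, with overlapping libraries (5.57 RPKM in Cko-ST and 14.6 RPKM in Cko-NS, -1.12 ± 0.35, adjusted p = 0.0371), and averaged 5.07 RPKM in WT-ST and 6.13 RPKM in WT-NS (adjusted p = 0.712). Mmp9 and Mmp3, chosen for mention after their values were seen because both are widely studied in stroke, were at the floor. Mmp9 was listed at 0 in every library other than Cko-ST 3 (0.0212 RPKM), and the highest Mmp3 value was 0.400 RPKM, in WT-ST 2.

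Of 10 other ADAM genes, Adam9 and Adam15 were tested. Adam9, a sheddase, rose in both genotypes, with 29.3 to 35.8 RPKM in Cko-ST and 10.4 to 19.6 RPKM in Cko-NS (1.00 ± 0.22, adjusted p = 0.00529), and 29.1 to 42.6 RPKM in WT-ST and 12.6 to 23.1 RPKM in WT-NS (0.95 ± 0.22, adjusted p = 0.00754). Adam15, an ADAM of endothelial cells, rose in controls, with 72.5 to 142 RPKM in WT-ST and 35.1 to 57.7 RPKM in WT-NS (1.13 ± 0.22, adjusted p = 0.00237). In knockouts it had 79.1 to 124 RPKM in Cko-ST and 75.2 to 99.5 RPKM in Cko-NS (0.22 ± 0.22, adjusted p = 0.542). The high side of Cko-NS against WT-NS did not pass (0.97 ± 0.22, adjusted p = 0.0611), and neither did the interaction (-0.90 ± 0.32, adjusted p = 0.681). Reck, a membrane-anchored inhibitor of MMPs and the partner of Gpr124, was the tested gene of 4 other inhibitors and fell in both genotypes. It had 31.9, 28.3, 20.3 and 37.1 RPKM in Cko-ST, against 92.2, 70.9, 49.0 and 44.0 RPKM in Cko-NS (-1.07 ± 0.28, adjusted p = 0.0167). Control values were 19.9, 43.2, 24.0 and 39.2 RPKM in WT-ST, against 63.3, 62.5, 96.9 and 98.5 RPKM in WT-NS (-1.35 ± 0.28, adjusted p = 0.00351).

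Of 13 partners and convertases, 9 were tested and 1 changed in each genotype, where 15.2% of all genes changed in knockouts and 13.3% in controls. Tspan5, a tetraspanin that escorts ADAM10, fell to 49.5 RPKM in Cko-ST, against 73.1 RPKM in Cko-NS (-0.57 ± 0.18, adjusted p = 0.0438), and to 54.5 RPKM in WT-ST, against 90.5 RPKM in WT-NS (-0.72 ± 0.18, adjusted p = 0.0125). Furin, a convertase that activates ADAM and ADAMTS precursors, averaged 38.9 RPKM in Cko-ST and 30.5 RPKM in Cko-NS, and 43.1 RPKM in WT-ST and 28.3 RPKM in WT-NS (adjusted p = 0.505 and 0.127). Of 10 matrix substrates, 5 were tested. In knockouts 2 rose, Thbs1, an adhesive glycoprotein (4.36 RPKM in Cko-ST and 0.481 RPKM in Cko-NS, 1.68 ± 0.48, adjusted p = 0.024), and Hspg2, which encodes perlecan of the basement membrane (1.66 RPKM in Cko-ST and 0.556 RPKM in Cko-NS, 0.76 ± 0.25, adjusted p = 0.0498). Both averaged under 1 RPKM in Cko-NS and in WT-NS and passed the filter through their stroke libraries, so their count is a description only. In controls 0 of the 5 passed in limma and 2 (Thbs1 and Hspg2) had an unadjusted p under 0.05, as 27.1% of all genes did, with Thbs1 at 3.15 RPKM in WT-ST and 0.806 RPKM in WT-NS (1.14 ± 0.48, adjusted p = 0.127). The genes for aggrecan, brevican, neurocan, versican and decorin were under the filter. For Gpr124 loss in either hemisphere and for the interaction, 0 of the 20 tested genes of these 6 lists passed in limma. An unadjusted p under 0.05 was found for 6 of them in the non-stroke hemisphere (14.3% of all genes), 0 in the stroke hemisphere (4.84% of all genes) and 1 for the interaction (7.02% of all genes).

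The genes whose pattern over the 16 stroke libraries was most like that of each gene that changed in both comparisons, by the smallest root-mean-square difference of centred log2(RPKM + 1) among 5837 genes, are named as a description. For Adamts4 they included Emp1 and Apln (differences of 0.781 and 0.792). For Adamts1 they were Tuba1c, Vmp1 and Ch25h (0.393 to 0.395). For Adamts9 they were Mir147, Litaf and Inhbb (0.464 to 0.586). For Timp3 they included Lmbrd1 and Ppfibp1 (0.165 and 0.247). Timp1 was under the mean of 5 RPKM that this comparison used.

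In the beta-catenin experiment none of the genes changed past the threshold. In limma 0 of the 7 tested members passed, where 0% of 11252 genes did and 590 had an unadjusted p under 0.05, none of them a member. Adamts4, Timp1 and Mmp15 were under the filter. Adamts1 had 130, 77.1 and 52.6 RPKM in Bcat, against 66.2 and 60.1 RPKM in Ctnnb1-WT, and Adamts9 had 13.1, 4.24 and 2.84 RPKM in Bcat, against 4.71 and 2.41 RPKM in Ctnnb1-WT. Both were highest in Bcat 1 and overlapped between groups. The intervals of their differences were -0.46 to 1.17 for Adamts1 and -0.94 to 2.08 for Adamts9 (adjusted p = 0.969 and 0.97). Adamts4 was listed at 0 in Bcat 2 and 3 and in both Ctnnb1-WT libraries, and had 1.05 RPKM in Bcat 1.

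Timp3 was the member with the highest RPKM in these cells. It had 666, 737 and 701 RPKM in Bcat, against 677 and 405 RPKM in Ctnnb1-WT, with overlapping groups (0.42 ± 0.26, adjusted p = 0.966). Timp2 had 4.30, 13.3 and 32.4 RPKM in Bcat, against 6.63 and 5.85 RPKM in Ctnnb1-WT (0.91 ± 0.69, adjusted p = 0.969). Mmp14 had 1.72, 0 and 3.33 RPKM in Bcat, against 0 and 0.522 RPKM in Ctnnb1-WT (adjusted p = 0.969). Bcat 3, highest in Timp2 and Mmp14, also had the highest mural sum of the group (76.5 RPKM, with 13.6 as the lowest in Bcat and 19.0 and 27.4 in Ctnnb1-WT), and its part in these values was not tested. Adam10 had 55.7, 51.2 and 52.8 RPKM in Bcat, against 36.8 and 57.1 RPKM in Ctnnb1-WT, and Adam17 had 27.5, 20.3 and 24.2 RPKM in Bcat, against 28.1 and 27.4 RPKM in Ctnnb1-WT. Mmp15 had 2.05, 0.229 and 0 RPKM in Bcat, against 1.587 and 1.079 RPKM in Ctnnb1-WT. Of the 6 other lists, 0 of the 29 tested genes passed in limma and 2 (Adam15 and Mmp19) had an unadjusted p under 0.05, with Adam15 at 27.2 RPKM in Bcat and 51.4 RPKM in Ctnnb1-WT (-0.91 ± 0.29, adjusted p = 0.901) and Adamts13, the protease of von Willebrand factor, at 30.3 RPKM in Bcat and 29.2 RPKM in Ctnnb1-WT (adjusted p = 0.992). With 3 libraries against 2, the intervals reached past a doubling for Adamts1, Adamts9, Timp2, Timp3 and Mmp14, so such changes were not detectable at this size.

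**Figure D4:**
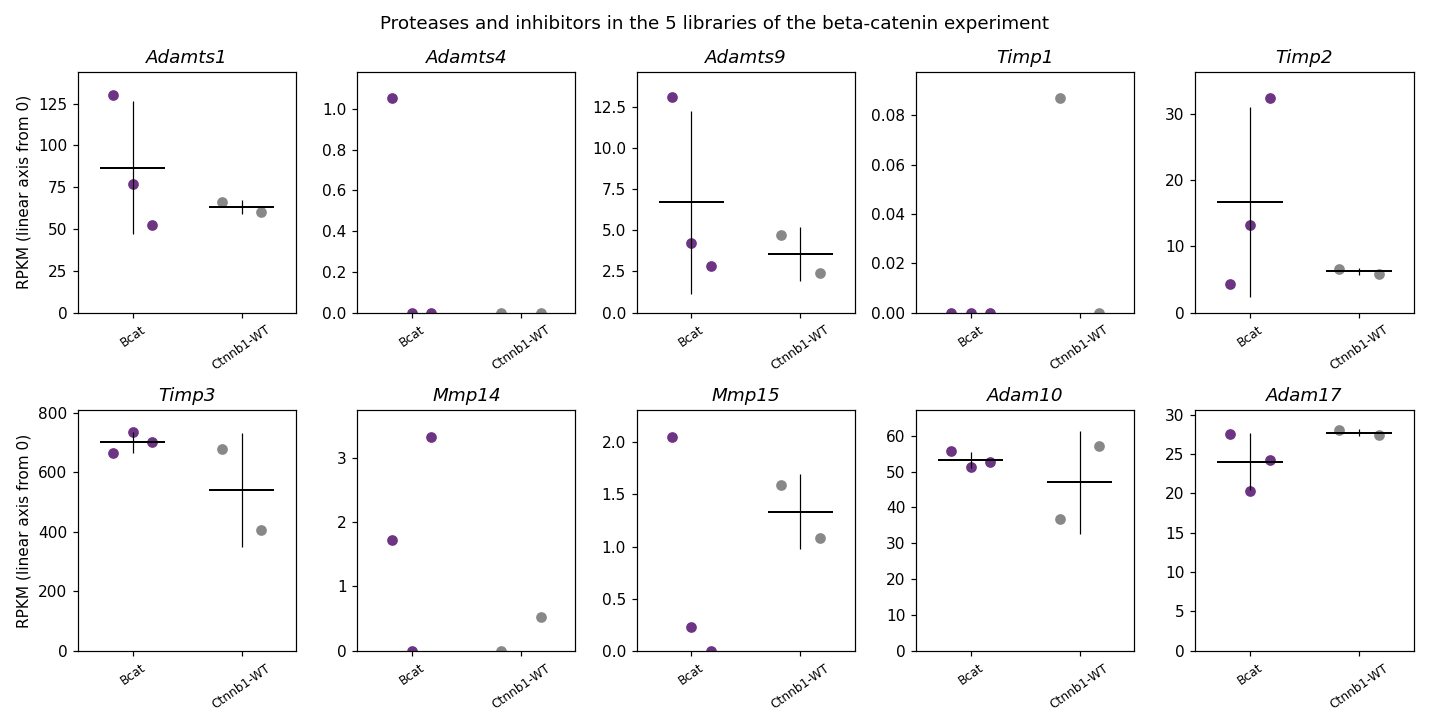
RPKM (linear axes from 0, each panel on its own scale) of the 10 genes in Bcat (n = 3) and Ctnnb1-WT (n = 2); points are libraries, horizontal bars are means and vertical bars 1 SD (cut at 0), drawn only for groups with no library at 0. Adamts1, Adamts9, Timp2, Timp3 and Adam10 overlap between the groups, and Timp3 is highest at 405 to 737 RPKM.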

How the data were processed

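The authors deposited 1 table of RPKM values with a column per library; the submitters' processing notes name edgeR and mm10, and aligner, annotation and gene lengths: not given in the sources used here. Another 8 columns of the table were not used. The 54 rows that share 23 names were left out. Tests were made with limma 3.58.1 (R 4.3.3) on log2(RPKM + 1), with eBayes and a mean-variance trend, two-sided, adjusted by Benjamini-Hochberg over the genes that averaged 1 RPKM or more in the fit. The 16 stroke libraries had 1 fit with 4 group means, and the other 5 had their own. Xist and 4 Y-linked genes (Ddx3y, Eif2s3y, Kdm5d, Uty) were not tested. The fit was tested on simulated data. Relative depth came from the commonest ratio of low values between libraries and could not be had for the 5 others. Reads behind low values were estimated from the smallest step that made values whole within 0.03, a rule set after the values were seen. Same-numbered hemispheres of knockouts deviated together (r of 0.132, 0.183, 0.266 and 0.154), and in controls 1 of 4 such pairs was under 0.1. Between Cko-NS and WT-NS, which differ in genotype, same-numbered libraries gave r of 0.073, 0.137, 0.012 and -0.012. The labels state no pairing, so a shared number need not mean a shared animal. The text names all 10 members, list members past the threshold or else highest in mean, and 3 most similar genes; some genes that fall under these rules are not reported here. Members and lists were chosen with earlier results of these data known. Coordinates are GENCODE's and promoters RefSeq's, matched for 9 of 10 members.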

Additional observations from a re-analysis of the deposited data

Results flagged for a closer look

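In 40 groups of 4 libraries (10 genes in 4 groups), 4 held a library far from the others. The usual rate of about 1 in 20 groups holds for normally spread values and not for values near 0. All 4 were in Timp1, Mmp14 or Mmp15, with the other libraries of the group near 0, so no excess over chance can be read from the count. Timp1 had 0.807 RPKM in WT-NS 2 and a listed 0 in the other WT-NS libraries. Mmp14 had 0.0757 RPKM in Cko-NS 2, with the others at 0 to 0.00664 RPKM, and 0.258 RPKM in WT-NS 3, with the others at 0 to 0.0264 RPKM. These values rest on an estimated 2 to 5 reads. Mmp15 had 3.83 RPKM in Cko-NS 4, with the others at 0 to 0.069 RPKM. Cko-NS 4 also had the highest leukocyte (83.7 RPKM), neuron (37.0 RPKM) and astrocyte (16.8 RPKM) marker sums of its group and read male against its label; the part of these in its Mmp15 value was not tested.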

How the results depend on the processing

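The rises of Adamts1, Adamts4, Adamts9 and Timp1 stayed past the threshold in every alternative that gave a value for them, 28 or 29 in each stroke comparison; the fall of Timp3 did not. Timp3 lost its call with no filter (adjusted p = 0.0902 in knockouts, 0.0815 in controls) and without the trend (0.0708 and 0.0648), and in knockouts also with median-of-ratios scaling (0.117), a fit of only the groups compared (0.0913) and labelled sex as a covariate (0.211). The causes were not tested. With genes of at least 5 RPKM, 1 member (Adamts9) passed for Gpr124 loss in the non-stroke hemisphere, where fewer genes were tested. Of all alternative values of single members, 1194 kept their side of the threshold, 18 no longer passed and 1 newly passed; some values that never passed changed sign. Over all genes, Gpr124 loss in the non-stroke hemisphere gave 31 genes, and 1 to 84 under alternatives (1 without WT-NS 4, 84 with at least 5 RPKM); in the stroke hemisphere it gave 8 without WT-ST 3 and 3 without Cko-ST 3. The stroke effect in knockouts gave 634 higher and 857 lower genes, and 843 and 626 with median-of-ratios scaling, which moved the median of all genes to -0.02 from -0.13; labelled sex left 993 genes. With the replicate number as a block that joined same-numbered libraries of both genotypes, 5 members passed in each stroke comparison and 0 elsewhere. Timp3 in knockouts then had an adjusted p of 0.0101 in limma. In both genotypes each stroke library correlated best with the non-stroke library of its own number (r of 0.128, 0.18, 0.124 and 0.049 in controls), a hint from the data only. The block within genotype and the sex read from RNA, both chosen after seeing the data, changed no member's call. Depth limits Timp1 outside the stroke hemisphere, Mmp14 and Mmp15.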
